A study of Mus musculus with 5 samples.

Results

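Chromosome 7 is represented by 1032 of the 30398 RAP1 peaks in the deposited list, chosen by their chromosome alone. The chromosome itself was selected on its measured number of peaks per Mb, which is low, so the density and the spacing of peaks that follows from it are given as descriptions, with no test. The series holds 5 libraries from mouse embryonic fibroblasts of mixed background, immortalised with SV40 large T and grown with puromycin. Chromatin was precipitated with a RAP1 antibody in 2 wild-type libraries and in 2 RAP1-deleted libraries, the negative control of the design, and 1 input library had no antibody. The list gives pooled positive and pooled negative reads, taken here to be wild-type and RAP1-deleted from the design, so no value has a spread between replicates and the depth of each library is unknown. Intervals in brackets are 95% intervals for counting error only. Each listed peak of chromosome 7 has a deposited false discovery rate, for positive against negative reads, of at most 0.086. An excess of positive reads thus partly follows from how peaks entered the list, and ratios and bounds are descriptions.

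RAP1 is the shelterin subunit that is tethered to telomeric TTAGGG repeats by TRF2, and in mammalian cells it also sits at sites inside chromosomes. Mouse chromosomes are telocentric: the centromere lies at the low coordinates and the long arm ends in the distal telomere. Chromosome 7 is known for large families of chemosensory receptor genes that stand side by side. Vomeronasal receptors detect pheromones, olfactory receptors detect odorants, and both are normally silent outside sensory neurons. The same chromosome carries the beta-globin genes and imprinted clusters. All coordinates are of the mm9 build.

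Peaks were sparse on chromosome 7, as its choice required. Chromosome 7 has 6.91 peaks per Mb (6.49 to 7.34) between its first peak start at 3148382 and its last peak end at 152516634, a span of 149.4 Mb. The other 18 autosomes run from 8.41 per Mb on chromosome 12 to 18.4 on chromosome 11, with a median of 12.3, so that chromosome 7 is the lowest autosome, and X, at 2.84, lies below it. It stands at 56.1% of the median of all 19 autosomes. These intervals treat peaks as spread evenly, and are too narrow for peaks that cluster.

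Receptor genes make up a large share of the genes of chromosome 7. In the RefSeq gene table of GRCm38, a build other than that of the peaks, the chromosome has 2030 protein-coding genes, or 13.6 per Mb of the listed span, and the other autosomes run from 5.75 to 13.5. Of the 2030, 417 (20.5%) carry an olfactory (Olfr) or vomeronasal (Vmn1r, Vmn2r) receptor symbol, against a median of 4.99% on the other autosomes. Chromosome 7 holds 239 of the 1110 Olfr genes of the table, 126 of the 231 Vmn1r genes and 52 of the 124 Vmn2r genes. Other families with many members there are the Klk serine proteases, with 26 of 27 genes, the Mrgpr receptors of sensory neurons, with 19 of 20, and the Ceacam and Psg adhesion and pregnancy glycoproteins, with 15 of 15 and 13 of 13.

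Setting the receptor genes aside narrowed the gap between gene density and peak density but did not close it. Without them the chromosome has 10.8 genes per Mb, and 2 autosomes, chromosomes 11 and 19, lie above it. It then has 64.0 peaks per 100 remaining genes, against 50.8 per 100 of all its genes. On the other autosomes the number of peaks per 100 non-receptor genes runs from 124 on chromosome 4 to 234 on chromosome 3. Chromosome 11, similar in gene density, has 144 peaks per 100 non-receptor genes, and chromosome 12, similar in sparseness, has 146. X has 47.7, under chromosome 7.

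**Figure D1:**
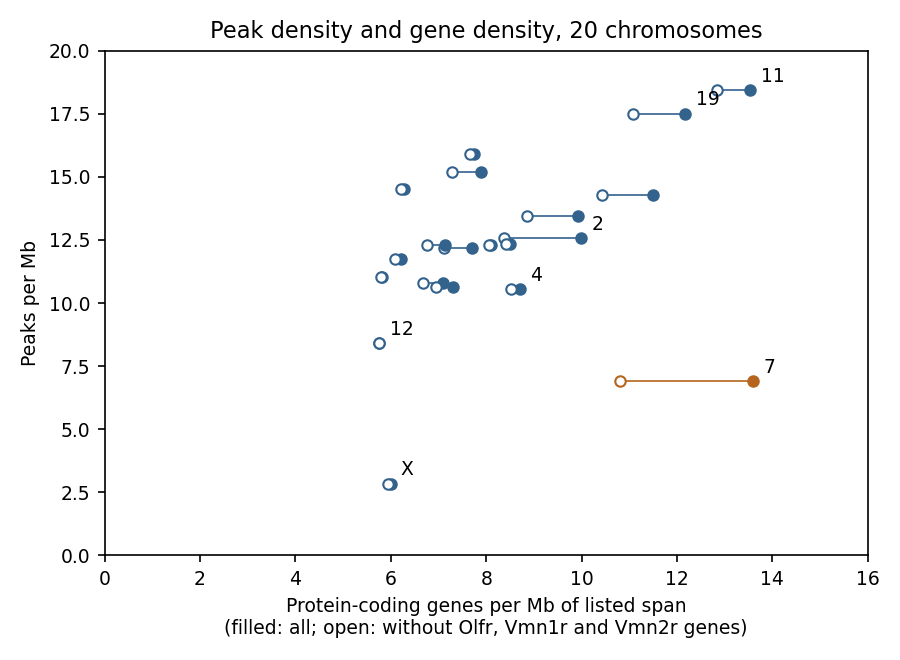
Peaks per Mb (vertical) against protein-coding genes per Mb of the listed span (horizontal) for 20 chromosomes. Filled points count all genes and open points leave out Olfr, Vmn1r and Vmn2r genes; chromosome 7 (brown) moves from 13.6 to 10.8 genes per Mb and still lies apart from chromosomes of like gene density at 6.91 peaks per Mb.

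In gene order, vomeronasal receptors sit near the centromeric end of the chromosome and most olfactory receptors in its later part. Of the 126 Vmn1r genes, 124 are among the first 507 of the 2030 genes, as are 29 of the 52 Vmn2r genes. Of the 239 Olfr genes, 173 stand after gene 1015 and up to gene 1522, and 58 stand after that. The longest uninterrupted run is 42 Olfr genes, Olfr467 to Olfr519, between Ovch2 and Nlrp10. A mixed run of 17 Olfr and 12 Vmn2r genes lies between Zfand6 and Folh1. The beta-globin genes Hbb-bt and Hbb-y border runs of 25 Olfr genes, ending with Olfr67, and 16 Olfr genes, starting with Olfr66. The longest vomeronasal runs are 16 Vmn2r genes, Vmn2r30 to Vmn2r37 after Clcn4, and 15 Vmn1r genes, Vmn1r167 to Vmn1r181 after Nlrp5. Gene coordinates of the build of the peaks were not used here, so whether a stretch without peaks holds one of these runs was not tested.

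Peaks on chromosome 7 are broken up by long empty stretches. Of 150 bins of 1 Mb, 19 (12.7%) hold no peak, whereas the other autosomes have at most 7, on chromosome 12, and 9 of the 18 have none. Another 35 bins hold 1 to 3 peaks and 54 hold 4 to 9. Bins with 10 to 19 peaks number 34 and carry 40.9% of the peaks, and the 8 bins with 20 or more carry 18.8%. The median bin has 6 peaks, and the median occupied bin 7, against medians of 8 to 17 in bins of the other autosomes. Occupied bins are thus sparse as well, by the same counts on which the chromosome was chosen.

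The 19 empty bins form 8 runs. The longest has 6 bins, from 40000001 to 46000000, and the next has 4, from 21000001 to 25000000. Runs of 2 bins start at 7000001, 14000001 and 32000001. Single empty bins start at 85000001, 131000001 and 145000001. Of the 19, 16 lie between 3 and 53 Mb.

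**Figure D2:**
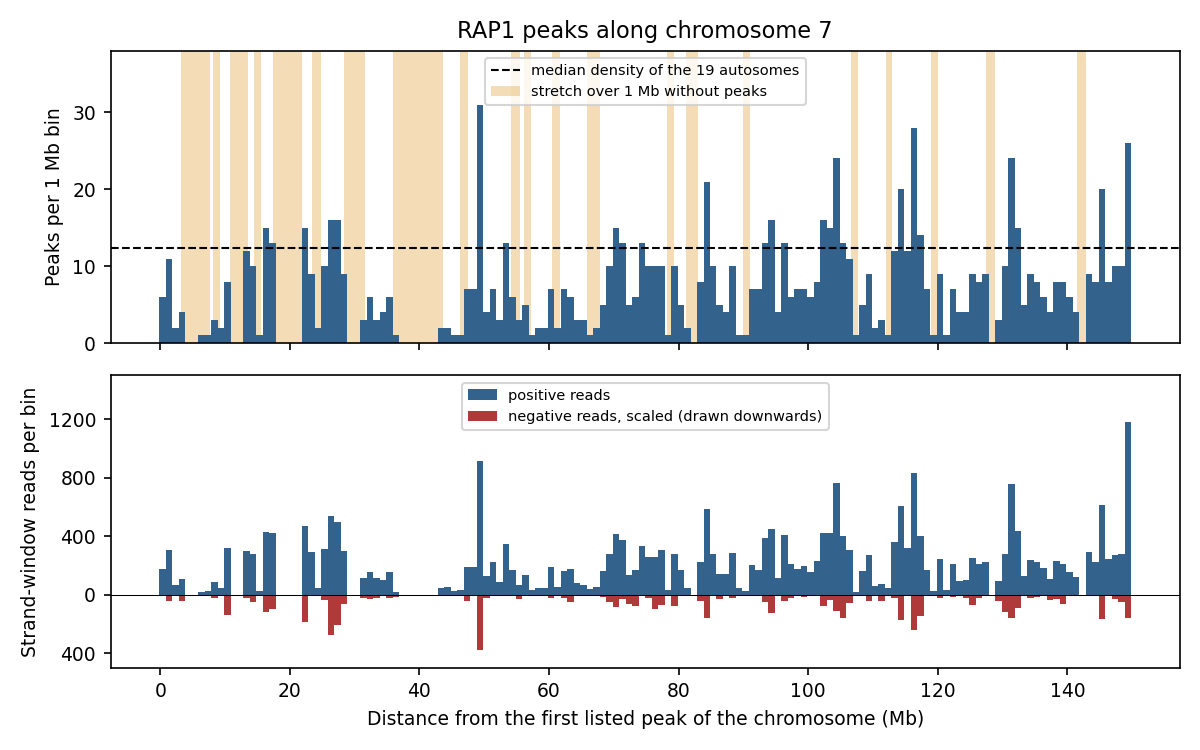
Peaks (upper) and reads in the strand windows (lower) per 1 Mb bin of chromosome 7, against the distance from its first listed peak in Mb; negative reads are scaled by 3.32 and drawn downwards. Shaded bands are the 22 stretches over 1 Mb without peaks, the dashed line is the autosome median of 12.3 peaks per Mb, and the first part of the chromosome shows the widest bands.

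Measured from peak to peak, 22 stretches over 1 Mb hold no peak. They add up to 43.0 Mb, or 28.8% of the span. The other autosomes have 0 to 7 such stretches each, covering at most 10.3% of a span (chromosome 12), and chromosome 7 holds 22 of the 80 over all autosomes. On X, with its lower density, 34 stretches cover 43.9%. The longest on chromosome 7, from 39046989 to 46828451, is 7.78 Mb, and the longest on any other autosome is 3.95 Mb, on chromosome 12.

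The 5 longest stretches all end before the peak at 46828452 and together take 21.5 Mb, or 14.4% of the span. After the 7.78 Mb stretch come one of 4.46 Mb from 20595033 to 25055295 and one of 3.36 Mb from 6402915 to 9761340. The fourth, from 31569374 to 34709877, is 3.14 Mb and the fifth, from 13853705 to 16638848, is 2.79 Mb. The sixth to the eighth lie further out: 1.98 Mb from 69014440 to 70992865, 1.84 Mb from 84283221 to 86121868 and 1.43 Mb from 144664870 to 146092994. Among the 10 longest stretches of all autosomes, 5 are on chromosome 7.

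Between the stretches over 1 Mb peaks stand in islands of very different size. The largest, from 94196764 to 109813405, holds 173 peaks, and some of the smallest are named here. A single peak of 20 positive reads, from 9761341 to 9761371, separates the 3.36 Mb stretch from another of 1.11 Mb. Next come 4 peaks within 426 kb, from 10874534 to 11300536, and then 10 peaks from 12321046 to 13853704. After the longest stretch, 6 peaks spread over 2586 kb, from 46828452 to 49414166, with 164 positive and 0 negative strand reads. The 43 peaks that border a stretch over 1 Mb have a median of 26 positive reads, against 27 over the chromosome, and 6 of them (14.0%, 5.30 to 27.9) have negative strand reads.

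Outside the stretches over 1 Mb, chromosome 7 has 9.70 peaks per Mb. The same measure, chosen after the data were seen, runs from 9.38 on chromosome 12 to 18.4 on chromosome 11 and is 5.06 on X. Chromosome 7 then stands at 74.9% of the autosome median, compared with 56.1% over the whole span. The stretches take up 28.8% of its span, and leaving them out lifts a chromosome's density by more the larger that share is. The median distance between neighbouring peaks is 56.9 kb on chromosome 7, 61.7 kb on chromosome 12 and 39.3 kb in the median of the other autosomes.

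**Figure D3:**
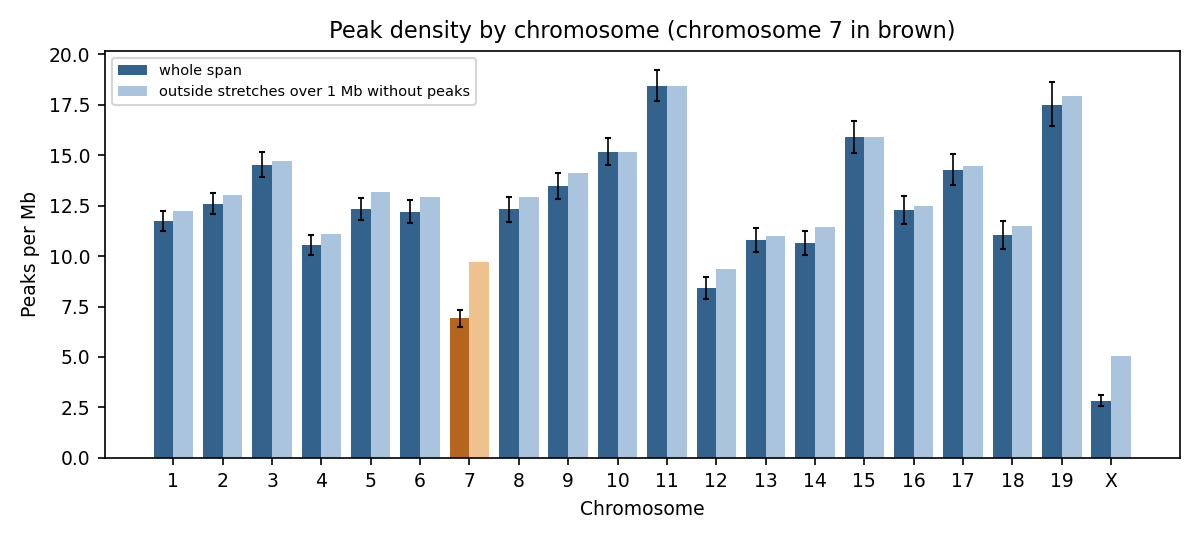
Peaks per Mb of each chromosome over its whole listed span (dark bars, with exact Poisson 95% intervals) and outside stretches over 1 Mb without peaks (light bars). Chromosome 7 (brown) goes from 6.91 to 9.70, and is the lowest autosome by the first measure and the second lowest, after chromosome 12, by the other.

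Counted over whole blocks of 50 Mb, the density climbs in steps along the chromosome. The block from 3 to 53 Mb holds 240 peaks, a mean of 4.80 per bin, with 10 of the stretches over 1 Mb. The block from 53 to 103 Mb holds 332 peaks (6.64 per bin) and 7 such stretches. The block from 103 to 153 Mb holds 460 peaks (9.20 per bin) and 5 such stretches, and its last bin is only partly covered. Medians per bin are 2, 6 and 8. Outside the stretches over 1 Mb, the blocks keep 22.7, 40.4 and 44.0 Mb for their 240, 332 and 460 peaks. By that measure there is no such climb, and the first block does not lie below the others. The first Mb from the first listed peak has 8 peaks and the first 5 Mb have 23.

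The 5 densest bins hold 133 peaks, 12.9% of the chromosome, and differ in their control reads. The bin that starts at 52000001 has 31 peaks, the most on the chromosome, and 16 of them have negative strand reads; its strand ratio is 2.41 (1.98 to 2.95). The strand ratio is the number of positive over scaled negative reads in the strand windows. The bin at 119000001 has 28 peaks and a ratio of 3.42 (2.69 to 4.41). The bin at 152000001, the last one, has 26 peaks and a ratio of 7.58 (5.67 to 10.4). With 24 peaks each, the bins at 107000001 and 134000001 have ratios of 6.95 (4.91 to 10.2) and 4.87 (3.62 to 6.68). The densest bin of another autosome holds 22 to 108 peaks.

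Single peaks of chromosome 7 were close in size and reads to those elsewhere. Their median length is 54 bp (interquartile range 37 to 74.3, full range 29 to 467), against 56 bp on the other autosomes. Positive reads per peak have a median of 27 (quartiles 24 and 33, extremes 13 and 149), compared with 28. Very short peaks of 29 to 31 bp number 203 (19.7%), and the other autosomes have 14.7% to 19.4%. In 968 peaks (93.8%) reverse reads were stacked further along the chromosome than forward reads, against 92.9% on the other autosomes. The median offset was 51 bp. In many peaks the offset equals the peak length, as in the peak ranked 64, with 120 bp for both, so it is not a separate measure. Of the 1032 peaks, 573 (55.5%) have a deposited false discovery rate at or under 0.01, against 56.0% on the other autosomes.

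Read-rich peaks are few. Of the peaks on chromosome 7, 34 (3.29%, 2.29 to 4.57) hold 50 or more positive reads, against 4.28% (4.05 to 4.52) on the other autosomes. These intervals overlap. The distal end carries 6 of the 34, and 4 of the 5 peaks with more than 75 reads. Only 85 peaks (8.24%) are among the best-ranked 10% of the whole list.

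Away from the distal end, the strongest peak lies from 13513111 to 13513202, in the island before the fifth-longest stretch. It has 87 positive and 0 negative reads, 38 forward and 46 reverse reads in the strand windows, and positive reads are at least 8.73-fold higher, taken against a floor of 3 pooled negative reads. It ranks 104 in the whole list. Next door, from 13547056 to 13547219, stands the chromosome 7 peak with most negative strand reads: 30 positive against 34 negative, 33 of these on the forward strand, a ratio of 0.266 (0.157 to 0.447). In the strand windows the 2 neighbours, 33853 bp apart, thus differ in which read set prevails. Over the whole peak they do not, as the second has 31 positive and 0 negative reads.

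The other best-ranked peaks are spread over the chromosome. The peaks from 90966993 to 90967035 and from 128106379 to 128106457 have 52 positive reads each and none in the negative set, and are each at least 5.22-fold higher. The one from 115118614 to 115118693, with 49 against 0 reads and at least 4.92-fold higher, borders a stretch of 1.04 Mb without peaks. In the peak from 29157959 to 29158029, ranked 190, 63 positive reads and 0 whole-peak negative reads stand beside 12 negative reads in the forward strand window, and the strand ratio is 1.43 (0.759 to 2.93). A pair of peaks in the densest bin, from 52317748 to 52317777 and from 52384835 to 52384873, have strand ratios of 2.71 (1.08 to 8.75) and 1.71 (0.832 to 3.94). The peak from 100706872 to 100706938 has 50 reads and a ratio of 2.51 (1.08 to 7.16). Of the 10 best-ranked peaks of the chromosome, 4 have no negative read in any column.

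The distal end combines dense peaks with many positive reads. The last 117 kb before the end of the last listed peak, a window set with these values known, hold 15 peaks with a median of 45 positive reads (22 to 149), against 27 in the 1017 peaks before that window. Of the 15, 6 (40.0%, 16.3 to 67.7) hold 50 or more reads, against 28 of 1017 (2.75%, 1.84 to 3.95). The last 1 Mb before the last listed peak end holds 33 peaks, 3.20% of the peaks (2.21 to 4.46) in 0.669% of the span. The last 0.1 Mb holds 12. Within a window of the same 117 kb, the other autosomes have at most 8 peaks, on chromosome 11. Peaks of 50 or more reads occur in such windows elsewhere too. They are 3 of 8 on chromosome 11, 3 of 6 on chromosome 5 and 2 of 5 on chromosome 17, where the highest has 116 reads. Chromosomes 6, 8, 9, 12, 13, 14, 15 and 18 have 0 in this window. How far the telomere lies beyond the last listed peak was not used here.

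The best-ranked peaks of the distal end, ranked 5 and 64, fall in a group of 5 between 152470193 and 152485666, 15.5 kb long, with 399 positive and 23 negative strand reads and a ratio of 5.22 (3.43 to 8.34). Its first peak, from 152470193 to 152470659, is the longest of the chromosome at 467 bp, with 76 positive reads and no negative read, at least 7.63-fold higher. Then comes the best-ranked peak of the chromosome, from 152475427 to 152475459, ranked 5 in the whole list. It is 33 bp long and has 121 positive and 0 negative reads over the peak. In its strand windows, 25 forward and 86 reverse positive reads stand beside 11 negative reads, all on the reverse strand. They give a ratio of 3.04 (1.63 to 6.26). A 30 bp peak 863 bp further, from 152476323 to 152476352, has 44 positive reads and no negative read. The peak from 152479821 to 152479940, ranked 64, has 105 positive reads in balance between strands (44 and 61) and 3 negative reads, a ratio of 10.5 (3.51 to 51.9). The last of the group, from 152485222 to 152485666, is 445 bp long, with 63 positive reads over the peak and 9 negative reads in the reverse window, a ratio of 2.34 (1.17 to 5.33).

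Most reads of any chromosome 7 peak stand in a peak with a low rank. The peak from 152439141 to 152439172, 32 bp long, has 149 positive and 9 negative reads over the peak, and 99 forward and 39 reverse positive reads in the strand windows. Its strand windows hold 15 negative reads, on both strands, and a ratio of 2.77 (1.62 to 5.08). Its deposited log2 fold is 2.52 and its rank 22199, whereas the peak ranked 5 has a deposited log2 fold of 6.79. It belongs to a second group of 5 peaks, from 152422769 to 152452393, with a ratio of 4.80 (2.98 to 8.22), of which it holds 15 of the 18 negative strand reads.

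The remaining distal peaks are closer to the chromosome's usual level. The peak from 152452270 to 152452393 has 45 positive reads and no negative read, and that from 152429238 to 152429266 has 47 positive reads and 3 negative strand reads. The last listed peak, from 152516568 to 152516634, has 56 positive reads and no negative read, at least 5.62-fold higher. The other 6 hold 22 to 36 reads, all without negative reads. The innermost of the 15, from 152400282 to 152400318, has 25 reads, and just outside the window the peak from 152378042 to 152378087 has 21, so the reads do not step up at the start of the window.

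Over the 15 distal peaks together, 855 positive and 41 negative strand reads give a ratio of 6.28 (4.59 to 8.81), and the 1017 other peaks give 5.66 (5.38 to 5.96). These intervals overlap, and a difference in the ratio to the control was not tested. The intervals take reads as independent, whereas single peaks hold 15, 11 and 9 of the 41 negative reads. With only peaks at a false discovery rate at or under 0.01, the ratio is 9.51 (5.88 to 16.4) over the 9 distal peaks left and 6.06 (5.67 to 6.49) over the 564 others, and these intervals overlap too. Negative strand reads are present in 5 of the 15 (33.3%, 11.8 to 61.6), which are the 3 most read-rich peaks and 2 others with 47 and 63 positive reads. Without the peak of 149 reads the ratio is 8.30 (5.62 to 12.8), and without the best-ranked peak 7.47 (5.19 to 11.1).

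**Figure D4:**
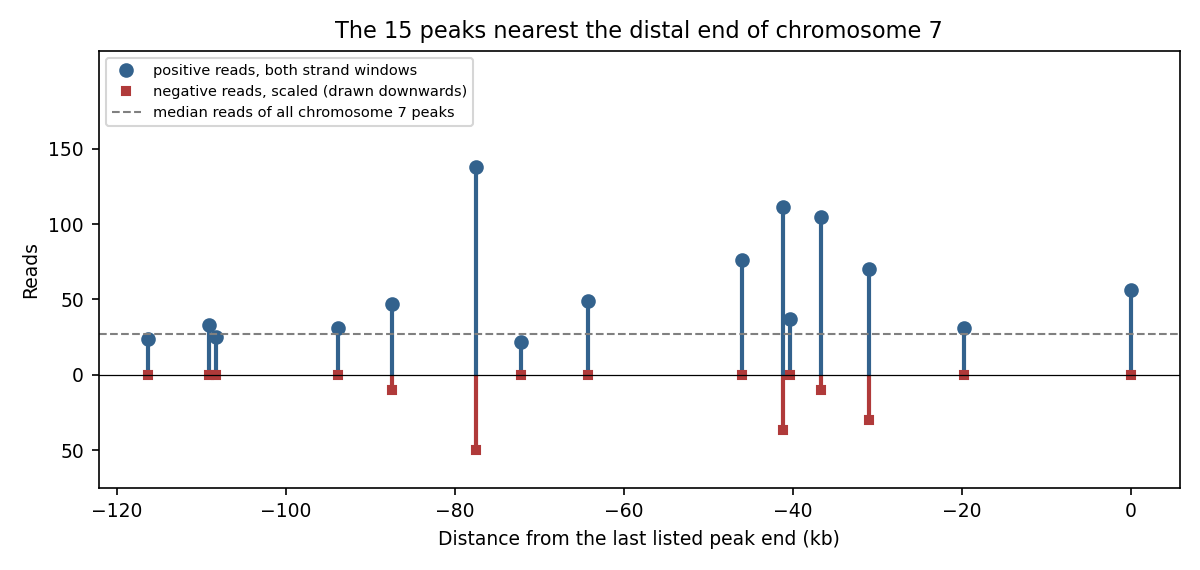
Reads in the strand windows of the 15 peaks in the last 117 kb, against the distance in kb from the last listed peak end; positive reads point upwards and negative reads, scaled by 3.32, downwards. The dashed line is the median of 27 whole-peak positive reads over chromosome 7; the peaks with 105 to 138 strand reads are the 3 that stand out, each of them with negative reads.

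Over all peaks together, without regard to local peak density, control reads on chromosome 7 are about as common as elsewhere. Negative strand reads occur at 196 of the 1032 peaks (18.99%, 16.6 to 21.5), against 18.9% (18.4 to 19.3) of peaks on the other autosomes. Summed over the chromosome, 30251 positive and 1605 negative strand reads give a ratio of 5.67 (5.40 to 5.97), and the other autosomes together give 5.71 (5.66 to 5.76). Chromosome 12 has 12.7% and a ratio of 8.23 (7.74 to 8.76), chromosome 11 has 25.6% and 3.88 (3.77 to 3.99). Chromosome 7 therefore combines a low density with control reads near the middle of the autosomes. Over the whole peak, 4 peaks have negative reads, 14 in all, of which 9 belong to the peak of 149 positive reads.

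Where control reads were present in the strand windows, they often matched the positive reads there. Over the 196 peaks the median strand ratio is 1.37, and 68 have a ratio of 1 or less, 6.59% of the peaks of the chromosome against 6.61% on the other autosomes. For 17 peaks the whole interval lies under 1, and for 4 it lies above 2. Neither count was made for the other autosomes. Negative reads stand on 1 strand only in 179 of the 196 peaks (91.3%) and on both in 17. On the other autosomes they stand on both strands in 616 of 5450 such peaks, so the chromosome is near the general level. In the peak from 79242172 to 79242200, 21 positive face 30 negative strand reads, a ratio of 0.211 (0.115 to 0.381), and both of its deposited strand log2 folds are below 0. It belongs to a group of 4 peaks from 79224286 to 79242200 with a ratio of 0.843 (0.550 to 1.33). Others with many negative strand reads are the peaks from 29738284 to 29738312, with a ratio of 0.710 (0.450 to 1.15), from 120310682 to 120310800, with 0.413 (0.245 to 0.705), and from 87982771 to 87982828, with 0.458 (0.269 to 0.791). Over the whole peak, each single peak named in this paragraph has 0 negative reads.

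Control reads are not spread evenly along the chromosome. From 3 to 53 Mb, where peaks are fewest, 70 of 240 peaks (29.2%, 23.5 to 35.4) have negative strand reads and the ratio is 3.93 (3.61 to 4.30). From 53 to 103 Mb the share is 13.0% (9.53 to 17.0) with a ratio of 7.41 (6.68 to 8.23), and from 103 to 153 Mb it is 18.0% (14.6 to 21.9) with 6.12 (5.66 to 6.62). Leaving out the densest bin, which lies in the first block, gives 25.8% (20.05 to 32.3) there and a ratio of 4.33 (3.93 to 4.79). The island of 53 peaks between 27890927 and 31569373 has 177 negative strand reads at 19 peaks and a ratio of 2.89 (2.48 to 3.40).

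Within chromosome 7, peaks in crowded bins had control reads more often. The share with negative strand reads is 12.5% in bins of 1 to 3 peaks (5.55 to 23.2) and in bins of 4 to 9 (9.23 to 16.4), 20.4% in bins of 10 to 19 (16.6 to 24.5) and 29.9% in bins of 20 or more (23.5 to 36.9). The strand ratio goes from 9.34 (7.19 to 12.4) in the sparsest of these classes to 4.05 (3.69 to 4.46) in the most crowded. The other autosomes have 7.32%, 10.5%, 16.03% and 25.4% in the same classes. Each share is lower than on chromosome 7, though the counting intervals of the shares overlap in every class. Their strand ratios are 15.9, 10.1, 6.81 and 4.30, against 9.34, 9.26, 4.84 and 4.05 on chromosome 7. In bins of 1 to 3 peaks the ratio intervals do not overlap (14.1 to 18.0 elsewhere, 7.19 to 12.4 on chromosome 7). Nor do they in bins of 10 to 19 (6.70 to 6.92 elsewhere, 4.49 to 5.21 on chromosome 7). In the remaining classes they overlap. In the block from 3 to 53 Mb the share is 17.6% (10.4 to 27.0) in bins of 1 to 9 peaks and 36.2% (28.5 to 44.5) in fuller bins, and in the rest of the chromosome it is 11.1% (7.88 to 15.004) and 19.3% (15.8 to 23.1). Peaks in one bin can share their source of reads, so they are not independent.

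**Figure D5:**
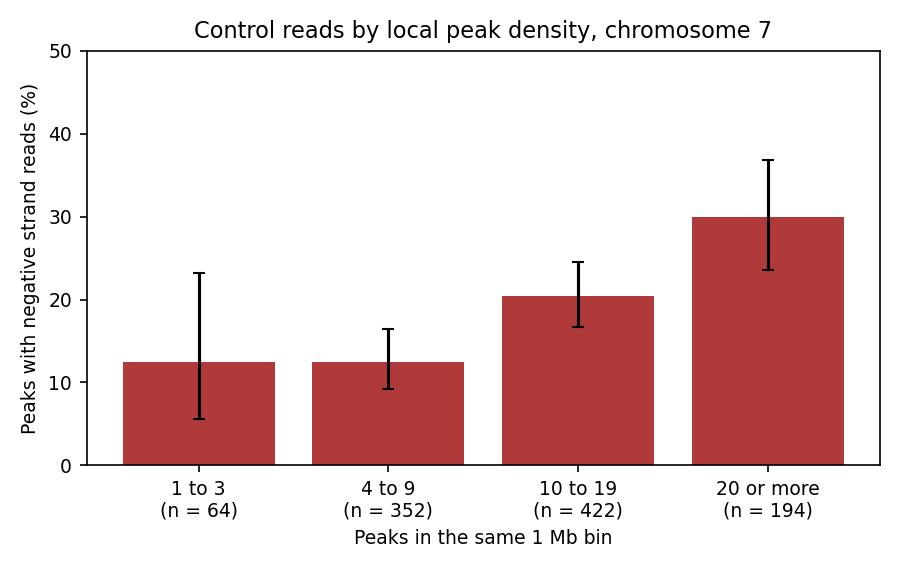
Share of chromosome 7 peaks with negative strand reads (%, vertical) by the number of peaks in the same 1 Mb bin (horizontal), with exact 95% intervals and the number of peaks in brackets. The share goes from 12.5% in bins of 1 to 3 peaks to 29.9% in bins of 20 or more.

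Short peaks had control reads more often than longer ones. The 203 peaks of 29 to 31 bp have negative strand reads in 27.6% (21.6 to 34.3) and a ratio of 3.09 (2.82 to 3.39), and the 829 longer peaks in 16.9% (14.4 to 19.6) and 6.90 (6.50 to 7.34). Copies made by PCR were not separated from independent fragments in either class.

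Most peaks, 755 of 1032, had no other peak within 10 kb. When peaks no more than 10 kb apart were joined, 755 of 878 groups were single peaks, 102 were pairs and 3 held 5 peaks, the most on the chromosome. Distances under 10 kb make up 14.9% of those between neighbours, against 14.1% on chromosome 12 and 27.6% on chromosome 11. Besides the 2 distal groups, the third group of 5 runs from 116661866 to 116669720, with 168 positive and 7 negative strand reads and a ratio of 7.23 (3.43 to 18.2). Its negative reads belong to 1 of its 5 peaks.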

How the data were processed

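One deposited peak list was analysed; chromosome 7, the lists of regions and the alternatives were chosen with earlier results of these data known. Per the file headers, each peak has counts of positive and negative reads over the peak and in windows of each strand, not normalised by the authors. The deposited list also gives the highest window as a coverage signal in reads, a log2 fold, a false discovery rate (q-value) and a score named Delta, which was not used. The build is mm9, per the submitters' processing notes; the aligner, the peak caller and whether the input was used: not given in the sources used here.

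Negative reads were multiplied by 3.32, solved from the deposited strand folds (140 of 141 entries within 0.001). Ratios have exact conditional binomial 95% intervals, shares Clopper-Pearson and densities Poisson ones (scipy 1.17.1). A peak with no negative read was bounded with a floor of 3. Scripts were tested on simulated data. Bins of 1 Mb take peaks by their start. The regions named are the 10 best-ranked peaks, the peaks of the last 117 kb, the 8 longest stretches, the 5 densest bins, the empty bins, the 3 largest groups and the 5 peaks with most negative strand reads; the islands, blocks, bin classes and the peaks with the most reads were chosen after their values were seen. Library-level tests were not run.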

Additional observations from a re-analysis of the deposited data

How the results depend on the processing

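Of 37 alternatives to 8 results, 25 stayed within the counting interval of the reported value and 12 moved. The longest stretch has no counting interval, so any change in it was counted as moved. With only peaks at a false discovery rate at or under 0.01, chromosome 7 has 3.84 peaks per Mb (55.6% of the autosome median), 31 empty bins (at most 12 on another autosome), a longest stretch of 8.47 Mb, a median of 30 positive reads, a strand ratio of 6.13 and a distal strand ratio of 9.51 from 9 peaks. With only peaks without any negative read, these are 5.60 per Mb (55.5%) and a longest stretch of 7.91 Mb. The density is 9.70 per Mb without stretches over 1 Mb that hold no peak and 8.07 (62.3%) without the 5 longest. The strand ratio is 6.90 without peaks of 29 to 31 bp and 6.19 without the 5 peaks with most negative strand reads. The last alternative, the 2 that leave out stretches and the 2 that leave out single distal peaks were added after the data were seen. No paired analysis was possible because the list pools the libraries, and leaving out a library was not possible for the same reason. The pooled depth limits single peaks: with 28 positive reads and none in the control, the bound is under 3-fold.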
